A study of Homo sapiens with 6 samples.

Results

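The autophagy core and receptor genes are 49 genes chosen by function from a written list, with earlier results of these data known. They include the subunits that start an autophagosome, the lipid kinase complex, the membrane and lipid transfer proteins and the conjugation enzymes. The ATG8 proteins, the cargo receptors, and a few lysosomal proteins and their transcription regulators make up the rest. All 49 were among the 47470 genes listed in the count files, 46 of them passed the filter on low counts that left 15298 genes for testing, and the other 3 were listed at 0. RNA was compared between untreated HEK293T cells and HEK293T cells exposed for 1 day to 1 mM valproic acid (VPA), which inhibits histone deacetylases, with 3 libraries in each group. HEK293T is an established line derived from human embryonic kidney in which the SV40 large T antigen is expressed, and both groups had the genotype WT. The labels number the libraries as replicates without saying whether they came from separate cultures, so the p-values measure the spread between these libraries, which may be technical.

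Autophagy encloses part of the cytoplasm in a double membrane and delivers it to the lysosome. The ULK kinase complex and the class III PI3-kinase complex start the membrane, ATG9 vesicles, ATG2 and WIPI proteins help it grow, and 2 ubiquitin-like conjugation systems attach LC3 and GABARAP proteins to it. Cargo receptors bind both the cargo and the attached LC3 or GABARAP, and TFEB and MITF are related transcription factors that bind CACGTG-type sites of lysosomal and autophagy genes.

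The promoters of 5 members are shown because they set genes that hold the CACGTG motif beside the 3 genes with the largest increases. Each is the 250 bases before a RefSeq transcription start on GRCh38.p14, read along the gene's strand, with CACGTG and the GC box (GGGCGG, or CCGCCC on the other strand) in capitals. LAMP1 lies at chr13:113296989-113297238 on the plus strand, ATG3 at chr3:112561963-112562212 on the minus strand, OPTN at chr10:13099832-13100081 on the plus strand, TFEB (the first of its 3 listed starts) at chr6:41735609-41735858 on the minus strand, and WIPI1 at chr17:68457497-68457746 on the minus strand.
LAMP1: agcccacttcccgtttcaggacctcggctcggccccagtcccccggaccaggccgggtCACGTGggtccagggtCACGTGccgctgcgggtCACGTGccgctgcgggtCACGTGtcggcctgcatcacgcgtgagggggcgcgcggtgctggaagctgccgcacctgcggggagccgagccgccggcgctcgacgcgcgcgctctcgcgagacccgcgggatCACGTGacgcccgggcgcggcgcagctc
ATG3: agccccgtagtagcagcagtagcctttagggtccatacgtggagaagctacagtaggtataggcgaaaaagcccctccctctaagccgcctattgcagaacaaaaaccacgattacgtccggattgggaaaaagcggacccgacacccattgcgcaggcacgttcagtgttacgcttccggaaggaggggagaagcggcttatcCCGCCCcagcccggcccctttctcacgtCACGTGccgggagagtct
OPTN: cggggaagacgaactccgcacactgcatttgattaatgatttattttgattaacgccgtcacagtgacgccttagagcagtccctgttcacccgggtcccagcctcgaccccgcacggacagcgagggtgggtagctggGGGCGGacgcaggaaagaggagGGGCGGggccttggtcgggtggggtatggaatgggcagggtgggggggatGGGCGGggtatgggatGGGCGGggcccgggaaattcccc
TFEB: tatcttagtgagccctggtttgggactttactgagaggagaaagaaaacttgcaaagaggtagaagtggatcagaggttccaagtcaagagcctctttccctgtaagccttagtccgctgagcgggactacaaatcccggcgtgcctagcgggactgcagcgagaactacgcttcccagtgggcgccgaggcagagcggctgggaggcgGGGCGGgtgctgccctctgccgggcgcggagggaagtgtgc
WIPI1: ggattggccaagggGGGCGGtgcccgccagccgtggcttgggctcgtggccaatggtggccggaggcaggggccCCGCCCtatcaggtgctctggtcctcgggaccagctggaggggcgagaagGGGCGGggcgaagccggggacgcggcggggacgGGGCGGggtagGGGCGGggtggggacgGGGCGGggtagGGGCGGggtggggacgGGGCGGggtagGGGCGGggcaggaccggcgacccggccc

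In the printed stretches LAMP1 held 5 copies of CACGTG and ATG3 held 1, whereas OPTN, TFEB and WIPI1 held none and carried 4, 1 and 9 GC boxes. RefSeq windows that ran on for 50 bases past the start were found for 41 of the 49 members (54 windows). CACGTG, which reads the same on both strands, occurred in 5 of these windows (9.26%), those of LAMP1 (6 copies), ATG3 (2 copies), ATG14, BNIP3 and CTSD, and in 7.26% of all 35116 windows of that length. Its longer form TCACGTGA, which contains it, occurred in the LAMP1 and ATG3 windows (3.70% of member windows) and in 0.98% of all windows. A GC box on either strand was present in 66.7% of the member windows and in 44.95% of all windows. The median content of G and C was 64.7% in member windows and 58.7% in all windows, which cover 27305 genes, tested here or not. The part of base composition in these shares was not tested. Among the 5 genes with CACGTG, ATG3 fell slightly after VPA and LAMP1, ATG14, BNIP3 and CTSD did not pass the test; none of the windows of OPTN, TFEB, WIPI1 or MITF contained the motif. These matches describe letters in a window, and binding was not measured here.

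The libraries held between 18622267 and 18828495 reads assigned to genes, and the biological coefficient of variation estimated by edgeR was 3.83%. All 7 markers of the line were expressed and passed the filter, with PAX2, KRT8, KRT18, NEFL, NEFM and LHX1 higher and VIM lower after VPA. Of the 5 markers of other cell types, CD3E, ALB and PECAM1 had 1, 2 and 5 raw reads over the 6 libraries. PTPRC had 12, none of them in untreated cells and 4.79, 3.85 and 2.87 normalized reads in the VPA-treated libraries, and did not pass the filter. MYOD1 had 2.07, 1.05 and 4.20 normalized reads in untreated cells and 42.2, 30.8 and 31.6 in VPA-treated cells (log2 3.77 ± 0.38, adjusted p = 2.16e-08 by edgeR). The part of these markers in the values below was not tested. In bulk libraries, fewer cells of a type and less RNA per cell cannot be told apart.

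VPA moved the autophagy genes in both directions, mostly by little, and raised a few genes of low abundance clearly. By edgeR's quasi-likelihood test with Benjamini-Hochberg adjustment, 13 of the 46 tested members were higher in VPA-treated cells (28.3%), 16 were lower (34.8%) and 17 did not pass an adjusted p of 0.05. Over all tested genes 32.9% were higher and 30% were lower, so the shares of members were near the background. At the thresholds of the study (at least 1 in size on the log2 scale, besides the adjusted p of 0.05), 2 members were up-regulated, OPTN and TFEB, beside 12% of all tested genes. By edgeR 0 members were down-regulated at these thresholds, beside 0.503% of all tested genes; the count was also 0 by DESeq2, and no unadjusted p could change it because the lowest member lay at -0.41. The median log2 fold change was -0.036 over the members and 0.0058 over all tested genes. These counts of falls depended on how the libraries were scaled, as described further on.

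**Figure D1:**
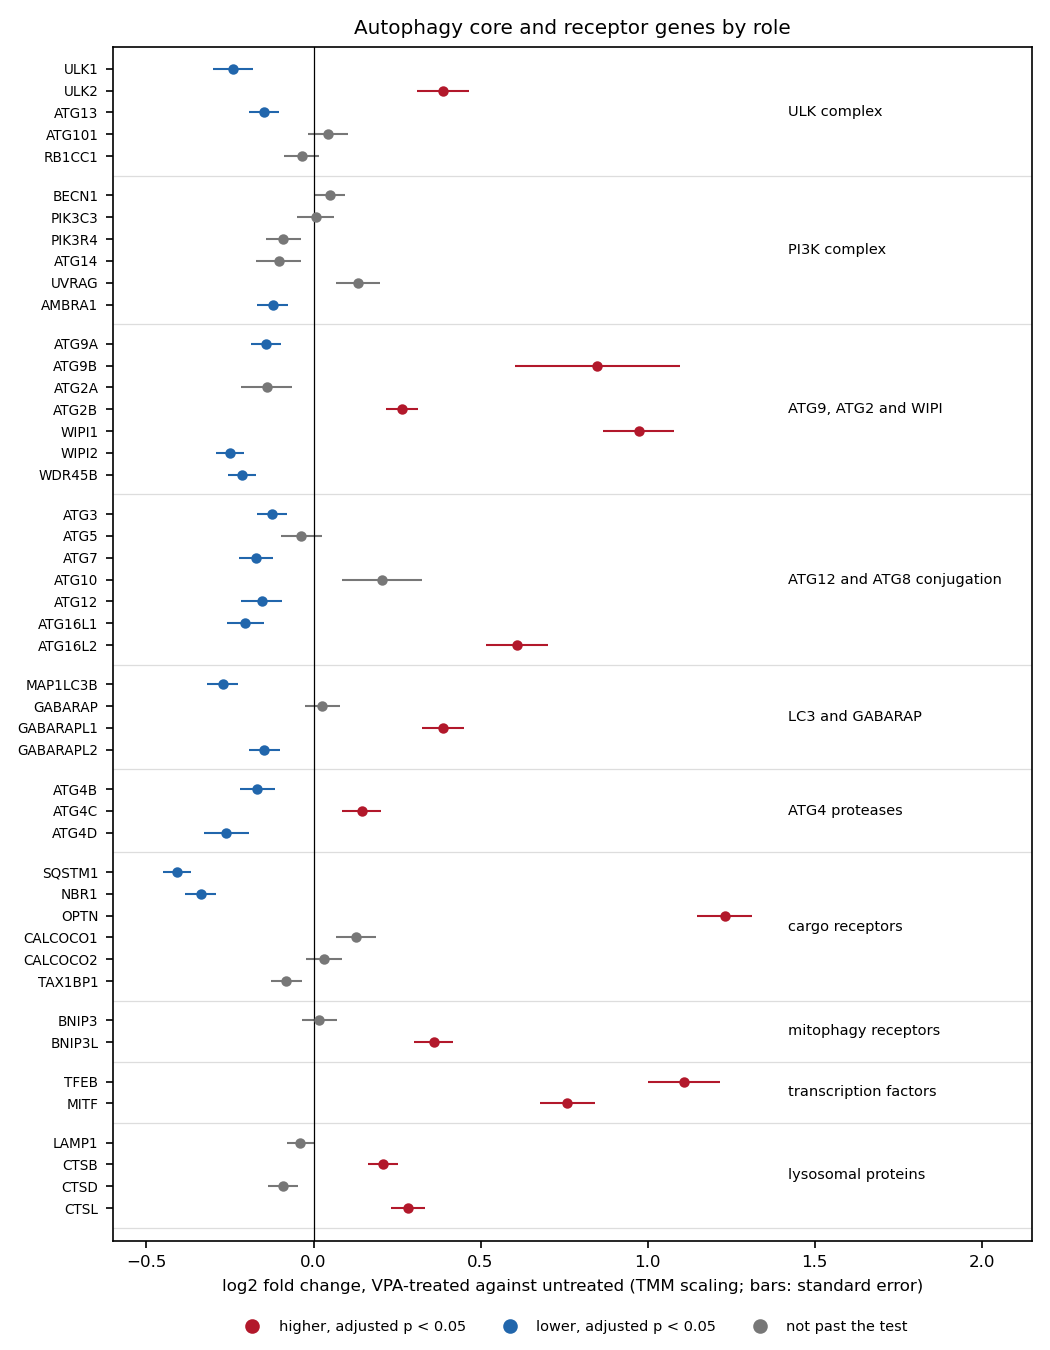
Log2 fold change (horizontal axis, VPA-treated against untreated, TMM scaling) of the 46 tested members, grouped by role; points are edgeR estimates, bars are standard errors, red is higher, blue is lower and grey did not pass an adjusted p of 0.05 (n = 3 libraries a group). OPTN (1.23), TFEB (1.11) and WIPI1 (0.97) lie farthest to the right, and the 16 blue points lie between -0.41 and -0.12; when libraries were scaled to ribosomal protein genes, only SQSTM1 of these 16 was still called lower.

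The change went with the abundance of the gene, as it did across the transcriptome. Values below are normalized read counts, that is, reads scaled by TMM to a common library of about 18724000 reads. Among members with a mean below 500 normalized reads, 7 of 9 were higher (ULK2, ATG9B, WIPI1, ATG16L2, OPTN, TFEB and MITF) and ATG10 and ATG14 did not pass; among all tested genes at that level 45.1% were higher and 12.3% lower. Among members at or above 500, 6 of 37 were higher and 16 were lower; among all tested genes at that level 19.4% were higher and 49.7% lower. The median log2 fold change of all genes was 0.25 below this level and -0.12 at or above it. The level of 500 was set after the values were seen, so the division is a description.

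**Figure D2:**
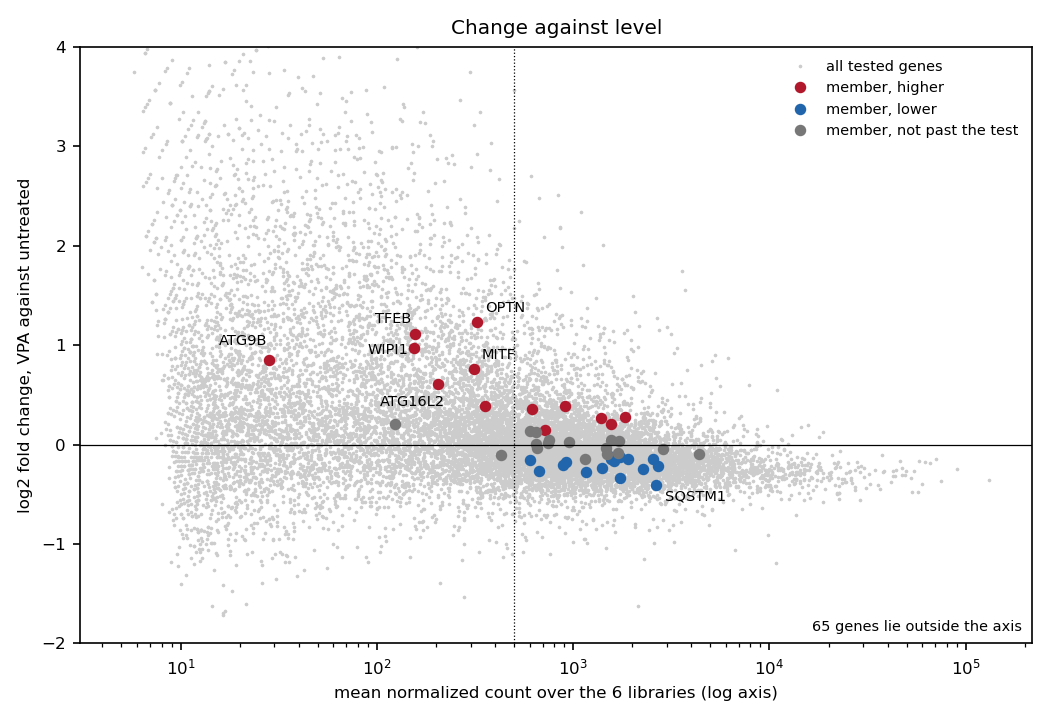
Log2 fold change (vertical axis, VPA-treated against untreated, TMM scaling) against the mean normalized count over the 6 libraries (horizontal log axis) for all tested genes (small grey dots) and the members (large dots, coloured by call); the dotted line marks 500 reads, and 65 genes lie outside the axis, which runs from -2 to 4. The members with the largest increases, such as OPTN, TFEB and ATG9B, lie left of the line among many other genes that were higher, and the blue members lie right of it.

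In the ULK complex, which receives the starvation signal, the 2 kinases moved apart. ULK2, the less abundant kinase, had 275, 335 and 315 normalized reads in untreated cells and 399, 426 and 387 in VPA-treated cells, an increase of 0.39 ± 0.08 (log2, SE; adjusted p = 0.000175 by edgeR). ULK1 had 1651, 1479 and 1427 reads in untreated cells and 1401, 1224 and 1234 in VPA-treated cells, a change of -0.24 ± 0.06. For neither kinase did the groups overlap. The scaffold ATG13 also fell slightly (-0.15 ± 0.05), whereas ATG101 (0.04, 95% interval -0.08 to 0.17) and the large scaffold RB1CC1 (-0.04, -0.15 to 0.08) did not pass the test.

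The class III PI3-kinase complex makes the lipid that WIPI proteins read, and its transcripts moved little. AMBRA1, a regulator of the complex, had 1593, 1679 and 1618 normalized reads in untreated cells and 1577, 1453 and 1463 in VPA-treated cells (-0.12 ± 0.05, adjusted p = 0.0284 by edgeR), and the gap between the groups was small. The other 5 members did not pass: the estimates were 0.05 for BECN1, 0.01 for the catalytic subunit PIK3C3, -0.09 for PIK3R4, -0.10 for ATG14 and 0.13 for UVRAG. Their 95% intervals together spanned -0.25 to 0.27.

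Among the genes for membrane supply and expansion, 3 rose, 3 fell and ATG2A (-0.14) did not pass. WIPI1, which binds the lipid PI3P on the growing membrane, had 116, 97.3 and 98.7 normalized reads in untreated cells and 207, 189 and 217 in VPA-treated cells, a 1.96-fold increase (log2 0.97 ± 0.11, adjusted p = 6.98e-08 by edgeR). All 3 treated libraries lay well above all 3 untreated libraries. ATG9B, the minor form of the lipid scramblase ATG9, was scarce, with 15.5, 25.1 and 19.9 reads in untreated cells and 26.8, 46.2 and 36.4 in VPA-treated cells. The highest untreated and the lowest treated library were close, and the estimate was wide (0.85 ± 0.25, adjusted p = 0.00483). The lipid transfer protein gene ATG2B rose from 1258 ± 72.1 to 1511 ± 10.3 reads (mean ± SD, n = 3; log2 0.26). WIPI2 (-0.25), WDR45B (-0.21) and ATG9A (-0.14), the abundant members of their families, fell.

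In the conjugation systems the RNA of the abundant enzymes fell slightly. ATG16L1, which places the ATG12-ATG5 conjugate on the membrane, had 883, 983 and 977 normalized reads in untreated cells and 829, 788 and 851 in VPA-treated cells (-0.20 ± 0.06). Its relative ATG16L2 had 159, 157 and 173 reads in untreated cells and 272, 232 and 242 in VPA-treated cells (0.61 ± 0.09, adjusted p = 6.7e-06 by edgeR). The groups overlapped for neither gene. The E1-like enzyme gene ATG7 (-0.17), the E2-like ATG3 (-0.12) and the modifier ATG12 (-0.16) fell, and ATG5 (-0.04, 95% interval -0.16 to 0.09) and the E2-like ATG10 (0.20, -0.04 to 0.45) did not pass.

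The RNA of the ATG8 proteins, which coat the autophagosome and hold the receptors, changed in composition. MAP1LC3B, the usual marker of autophagosomes, had 1266, 1292 and 1256 normalized reads in untreated cells and 1046, 1055 and 1056 in VPA-treated cells (-0.27 ± 0.05, adjusted p = 2.79e-05 by edgeR). GABARAPL1 had 690, 846 and 827 reads in untreated cells and 1015, 1039 and 1034 in VPA-treated cells (0.39 ± 0.06). GABARAPL2 had 1561, 1697 and 1650.2 reads in untreated cells and 1442, 1511 and 1477 in VPA-treated cells (-0.15 ± 0.05). The groups were separate for these 3 genes, whereas GABARAP overlapped, with 986, 924 and 912 reads against 959, 972 and 944. In reads per kilobase of transcript, GABARAPL1 made up 12.3% ± 1.0 of the summed level of the 4 genes in untreated cells and 16.7% ± 0.1 in VPA-treated cells (mean ± SD, n = 3), and the share of MAP1LC3B went from 17.4% to 14.9%. GABARAPL2 remained the most abundant of the 4, at 49.3% and 46.2%. MAP1LC3A was listed at 0 in all 6 libraries while its neighbours on chromosome 20, DYNLRB1 and PIGU, had 12147 and 3964 raw reads. If the gene was counted, 0 reads in the smallest library allow up to 0.161 RPM (3 reads, counting error only). All 1437 genes of chromosome X in the files were also listed at 0, and whether MAP1LC3A was counted was not tested. The near copy of MAP1LC3B, MAP1LC3B2, had 32 reads in all, and reads that align to both copies are set aside by the counting.

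The RNA of the ATG4 proteases, which prime and release the ATG8 proteins, fell for ATG4D and ATG4B. ATG4D had 799, 708 and 675 normalized reads in untreated cells and 658, 579 and 584 in VPA-treated cells (-0.26 ± 0.07), and ATG4B had 1742, 1729 and 1626 against 1640, 1483 and 1416 (-0.17 ± 0.05). The groups of ATG4B overlapped by 1 library. ATG4C was barely higher (0.14 ± 0.06, adjusted p = 0.0381 by edgeR), with overlapping groups. ATG4A, on chromosome X, was listed at 0, as were all 1437 genes of chromosome X in the files, including the mitophagy receptor FUNDC2; these 2 members were therefore not analysed here.

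The cargo receptors showed the widest spread of any role. OPTN, a receptor for damaged mitochondria and bacteria at chr10:13100082-13138308, had 202, 172 and 209.9 normalized reads in untreated cells and 427, 473 and 469 in VPA-treated cells, a 2.35-fold increase (log2 1.23 ± 0.08, adjusted p = 3.02e-11 by edgeR). SQSTM1, the gene of p62, which links ubiquitin-tagged cargo to LC3, had 3044, 2961 and 3085 reads in untreated cells and 2392, 2206 and 2248 in VPA-treated cells (-0.41 ± 0.04, adjusted p = 3.59e-08). Both genes had groups that stood far apart, in opposite directions. NBR1, a receptor related in domain layout to p62, fell by 0.34 on the log2 scale, and CALCOCO1 (0.13), CALCOCO2 (0.03) and TAX1BP1 (-0.08) did not pass. In reads per kilobase, SQSTM1 made up 40.6% of the summed level of the 6 receptors in untreated cells and 34.3% in VPA-treated cells, and OPTN went from 2.12% to 5.59%. Even after VPA, SQSTM1 transcripts outnumbered those of OPTN, at 42.9 against 7.01 TMM-scaled RPKM.

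**Figure D3:**
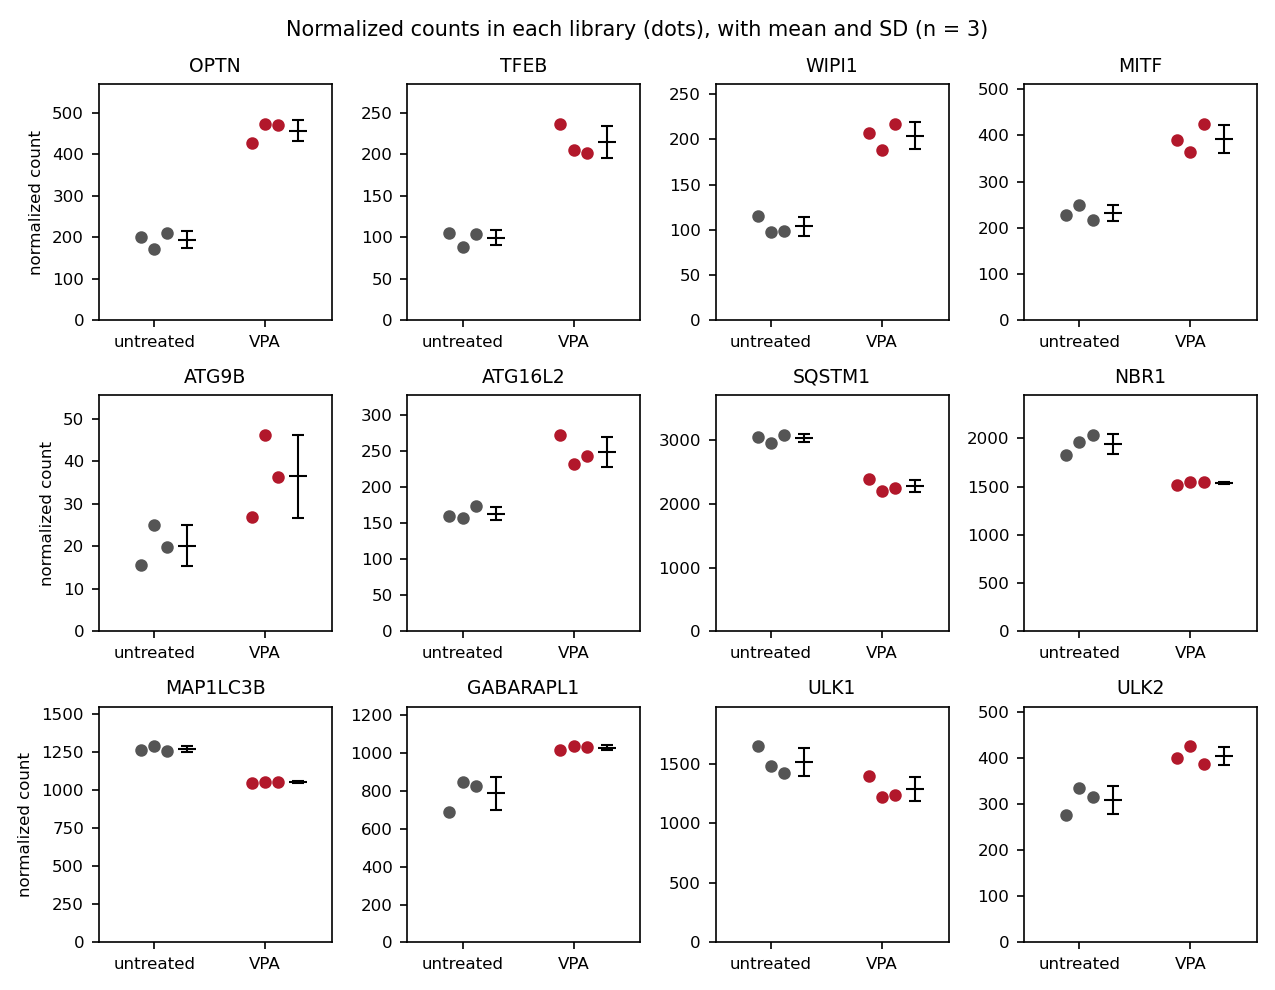
Normalized read counts (vertical axes from 0, TMM scaling) of 12 members in each untreated (grey) and VPA-treated (red) library, with the mean and SD of each group (bars, n = 3). OPTN, TFEB, WIPI1, MITF, ATG16L2, GABARAPL1, ULK2 and ATG9B are higher in every treated library than in any untreated one. The gap is narrow for ATG9B. SQSTM1, NBR1, MAP1LC3B and ULK1 are lower. When libraries were scaled to ribosomal protein genes, only SQSTM1 of these was still called lower. On that scale NBR1 was at -0.07, MAP1LC3B at -0.0014 and ULK1, whose direction turned, at 0.03.

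Of the mitophagy receptors, BNIP3L (NIX) had 524, 515 and 574 normalized reads in untreated cells and 689.9, 688 and 692 in VPA-treated cells, with no overlap (0.36 ± 0.06, adjusted p = 1.76e-05 by edgeR). BNIP3, its relative, stayed at 743 ± 12 and 752 ± 21 reads (mean ± SD, n = 3) and did not pass (0.02, 95% interval -0.09 to 0.13).

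The RNA of both listed transcription factors that regulate lysosomal genes rose. TFEB, at chr6:41683978-41736223, had 106, 89.0 and 104 normalized reads in untreated cells and 237, 205 and 202 in VPA-treated cells, a 2.16-fold increase (log2 1.11 ± 0.11, adjusted p = 1.29e-08 by edgeR). MITF, at chr3:69739464-69968332, had 228, 250.2 and 217 reads in untreated cells and 389, 363 and 425 in VPA-treated cells, a 1.69-fold increase (0.76 ± 0.08, adjusted p = 5.57e-08). Every treated library lay above every untreated one for both genes. TFEB activity is controlled largely by where the protein is in the cell, which these data do not measure.

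Of the 4 members for lysosomal proteins, the cysteine protease genes CTSL and CTSB rose and the other 2 did not pass. Cysteine cathepsin genes outside the members went both ways, as given further on. CTSL (cathepsin L) had 1535, 1682 and 1776 normalized reads in untreated cells and 1975, 2032 and 2066 in VPA-treated cells (0.28 ± 0.05), and CTSB (cathepsin B) had 1478, 1431 and 1448 against 1735, 1670.3 and 1629 (0.21 ± 0.04, adjusted p = 0.00038 by edgeR). The groups were separate for both. The aspartic protease gene CTSD (-0.09, 95% interval -0.18 to 0.0014) and the membrane protein gene LAMP1 (-0.04, -0.12 to 0.04) overlapped between groups.

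The ratio of 2 related genes within a library does not depend on the scaling, so 10 pairs of relatives were also compared as ratios of reads per kilobase. The pairs were formed after the values had been seen, and the ratios are therefore given without a test. WIPI1 stood at 10.9%, 9.07% and 9.45% of the level of WIPI2 in the untreated libraries and at 22.3%, 21.5% and 24.9% in the VPA-treated libraries. ATG16L2 went from 26.6% ± 1.7 to 46.6% ± 3.5 of ATG16L1, and GABARAPL1 from 24.9% ± 1.7 to 36.1% ± 0.4 of GABARAPL2 (mean ± SD, n = 3). ULK2 went from 11.9% to 18.3% of ULK1, ATG2B from 49.96% to 66.4% of ATG2A, BNIP3L from 32.3% to 41.0% of BNIP3, and ATG9B from 0.83% to 1.67% of ATG9A. In these 7 pairs the less abundant gene gained on its relative in every treated library compared with every untreated one. The ratios overlapped between groups for ATG4C to ATG4B (38.4% and 47.8%), CALCOCO1 to CALCOCO2 (23.9% and 25.5%) and MITF to TFEB (114% and 89.4%). Relatives that went the other way were not among the pairs. MAP1LC3B, less abundant than GABARAPL2, fell by more (-0.27 against -0.15). The same held for ATG4D beside ATG4B (-0.26 against -0.17) and WIPI2 beside WDR45B (-0.25 against -0.21). The share of such gains over other pairs of genes was not computed. Genes of low abundance were more often higher across the transcriptome, as given above. Whether related genes differ from unrelated genes of the same levels was not tested.

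**Figure D4:**
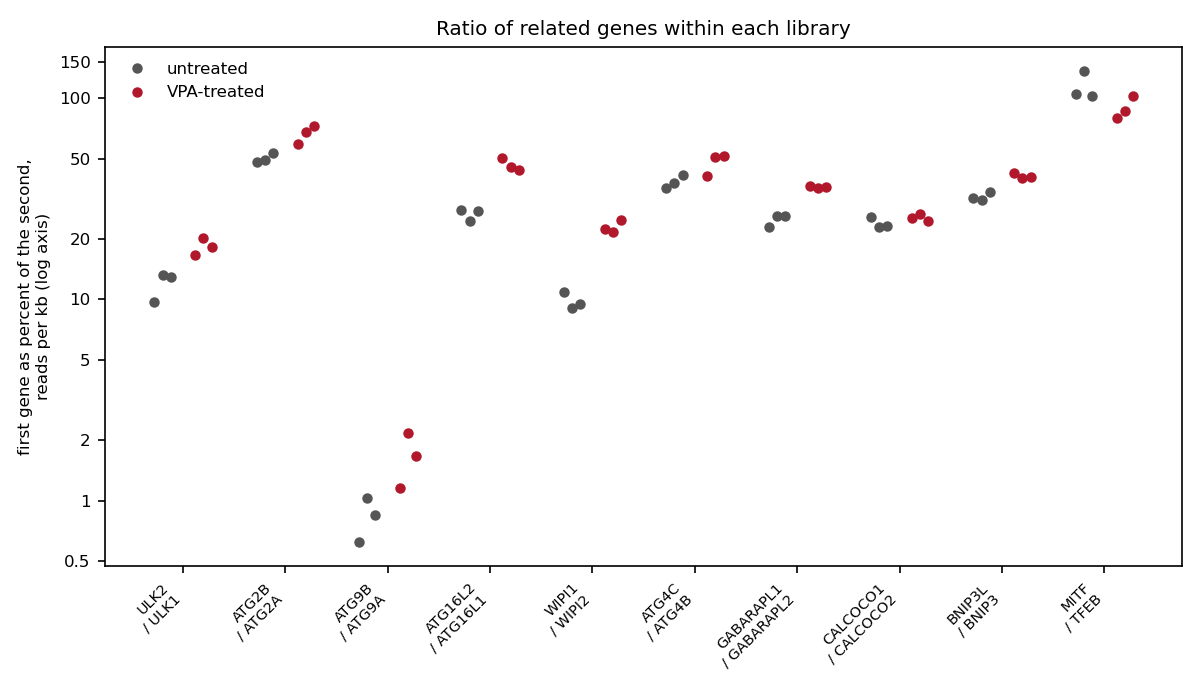
Level of the first gene as a percentage of its relative (vertical log axis, reads per kilobase within a library) in each untreated (grey) and VPA-treated (red) library for 10 pairs formed after the values were seen. Red points lie above grey points in 7 pairs, for example 22.9% against 9.79% on average for WIPI1 to WIPI2, and the groups overlap for ATG4C to ATG4B, CALCOCO1 to CALCOCO2 and MITF to TFEB.

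Leaving out each library in turn, 12 of the 13 members called higher and 10 of the 16 called lower kept their direction and call in all 6 fits. The 12, which leave out ATG4C, also kept them by DESeq2, with the replicate block and under the other scalings and filters that gave them a value; ATG9B was too scarce for the filter on a mean of at least 50 counts. The zero point of the changes depends on the scaling. When the libraries were scaled to the median cytosolic ribosomal protein gene, every gene moved upward and the median of all genes stood at 0.28, so that increases were kept and decreases smaller than the shift turned by construction: 34 members were called higher and 1 lower, SQSTM1, at -0.14 (adjusted p = 0.00901 by edgeR). On that scale ULK1 was at 0.03, WIPI2 at 0.02, ATG16L1 at 0.07, MAP1LC3B at -0.0014 and NBR1 at -0.07, all still below the median of all genes. With library totals alone, where that median was 0.14, 22 members were higher and 4 lower. Single libraries also decided some of the weaker calls: ATG3 lost its call without VPA replicate 1 (-0.09), ATG9A without VPA replicate 2 (-0.12), and ATG13 (-0.12) and ATG4B (-0.12) without VPA replicate 3. AMBRA1 lost its call without untreated replicate 2 (-0.11), VPA replicate 2 (-0.10) or VPA replicate 3 (-0.11). ATG12 lost its call without untreated replicate 1 (-0.14), untreated replicate 2 (-0.15), VPA replicate 2 (-0.14) or VPA replicate 3 (-0.13), and ATG4C without the same 4 libraries (0.11, 0.14, 0.10 and 0.13). Without untreated replicate 3 or VPA replicate 1, CALCOCO1 (0.16 and 0.16), ATG2A (-0.20 and -0.23) and CTSD (-0.12 and -0.14) passed the test, as did UVRAG without VPA replicate 1 (0.18) and ATG10 without VPA replicate 2 (0.31).

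Exons of 21 members overlap those of a gene on the opposite strand, and the strand setting of the counting is not given in the sources used here. OPTN overlaps CCDC3 (2455 raw reads in all, log2 fold change 0.62), WIPI1 overlaps ARSG (884 reads, 0.29), BNIP3L overlaps PNMA2 (4533 reads, 0.62) and ATG9B overlaps NOS3 (27 reads). SQSTM1 overlaps MGAT4B and MRNIP, which were at 0.06 and 0.23, and ATG16L2 overlaps FCHSD2 (0.10). Of other members called lower, ATG4D overlaps KRI1 (14124 reads, -0.44) and ATG12 overlaps AP3S1 (6139 reads, -0.31). The neighbours of ATG13, WDR45B, ATG3, ATG7 and MAP1LC3B lay between -0.084 and -0.0049. TFEB and MITF overlap no listed gene. The part of these neighbours in the values was not tested.

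Other genes of the pathway also moved in both directions. Of 38 tested genes for receptors, fusion and regulation outside the members, 7 were higher (18.4%) and 13 lower (34.2%) by edgeR, beside 32.9% and 30% of all tested genes and 19.4% and 49.7% of those at or above 500 reads; the median level of the list was 859 reads. Among those that rose were the ER-phagy receptor gene RETREG1 (96.3, 72.2 and 79.8 normalized reads against 196, 192 and 186; log2 1.21 ± 0.11), the glycogen-binding STBD1 (0.95) and the ER-phagy receptor gene CCPG1 (0.35). RETREG1 passed the thresholds of the study, and its groups did not overlap. Other ER-phagy receptor genes were split, with RTN3 (0.13) higher, ATL3 (-0.31) and TEX264 (-0.14) lower, and SEC62 (-0.06) not past the test. They were named after their values were seen. Among the genes that were lower were TBK1, a kinase that phosphorylates OPTN and SQSTM1 (-0.32), and the tethering subunit gene VPS18 (-0.32); both are named after their values were seen.

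Of 51 tested lysosome genes, whose median level was 1516 reads, 15 were higher (29.4%) and 11 lower (21.6%). Beside these stood 32.9% and 30% of all tested genes, and 19.4% and 49.7% of those at or above 500 reads. The list also holds genes below 500 reads, such as LAMP3 and CTSZ, and the differences were not tested. LAMP3 (1.38), the acid lipase gene LIPA (1636 ± 95.8 against 2416 ± 76.7 normalized reads; 0.56) and the cathepsin gene CTSH (0.40) rose, and the cathepsin gene CTSZ fell by 0.57 on the log2 scale. CTSH and CTSZ are genes of cysteine proteases. Of others of that kind on the list, CTSC (0.18) and CTSF (0.24) were higher, and CTSK (0.46) and CTSO (0.14) did not pass. CTSC, CTSF, CTSK and CTSO were named after their values were seen. The list holds 14 tested subunits of the V-ATPase, the proton pump of the lysosome. Of these, 1 was higher (ATP6V0D1, 0.12) and 4 were lower, at -0.31 (ATP6V0A2), -0.29 (ATP6V0C), -0.25 (ATP6V1D) and -0.18 (ATP6V1G1). These are 7.14% and 28.6% of the 14, whose median level was 2064 reads. Over all tested genes the shares were 32.9% and 30%, and over those at or above 500 reads 19.4% and 49.7%. Other subunit genes were tested but are not on the list. Of those, ATP6V1C2 (1.82), ATP6V1G2 (0.89) and ATP6V0E2 (0.21) were higher. ATP6V1B1 (0.23) and ATP6V1E2 (-0.22) did not pass. All these subunits were named after their values were seen. The split of both lists moved with the scaling: when libraries were scaled to ribosomal protein genes, 30 other autophagy genes and 41 lysosome genes were higher and 0 and 1 were lower, and at an unadjusted p of 0.05 the first of these was also 0.

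**Figure D5:**
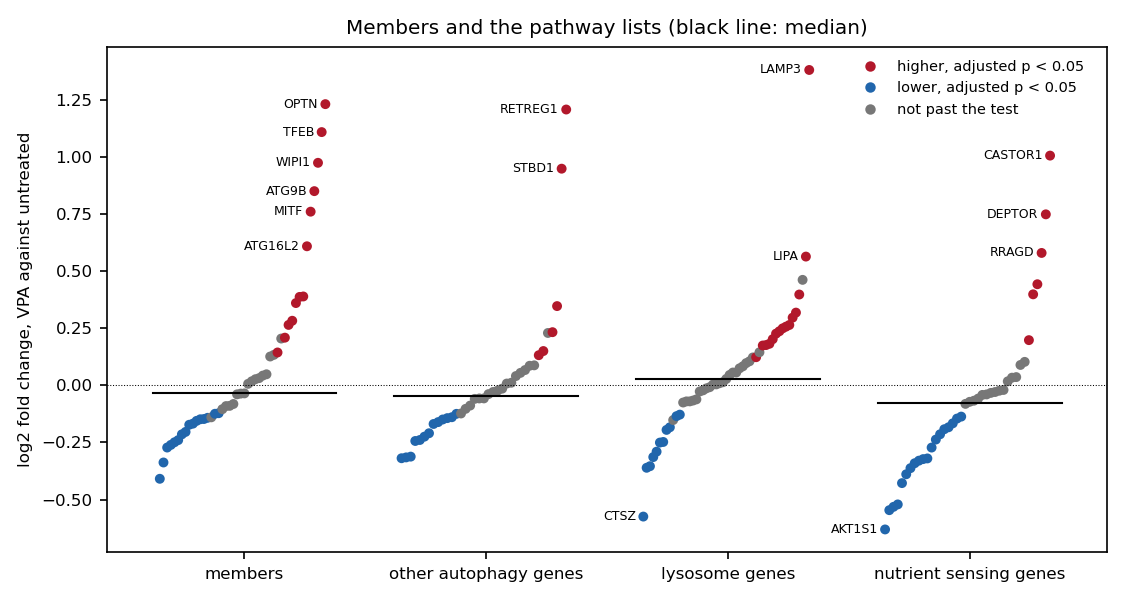
Log2 fold change (vertical axis, VPA-treated against untreated, TMM scaling) of the tested members and of 3 lists of related genes, ordered within each list, coloured by call and with a black line at the median; genes beyond 0.55 in size are named, and 1 of the other autophagy genes is not shown. Each list has a few genes far above 0, such as RETREG1 (1.21) and LAMP3 (1.38), and a median between -0.077 and 0.028, and the median of the members moved to 0.24 when libraries were scaled to ribosomal protein genes.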

How the data were processed

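Strand-specific mRNA libraries of 3 untreated and 3 VPA-treated HEK293T samples were analysed. The deposited values are raw counts of reads per gene, which the authors made by cleaning the reads with SOAPnuke, aligning them to hg38 with STAR and counting with HTSeq (2.7.10b and 2.0.1 in the submitters' processing notes, with a later HTSeq release in the methods); the annotation and strand setting are not given in the sources used here. Summary rows were left out: reads with no feature made up 6.80% to 7.69%, those without a unique alignment 2.81% to 2.92% and ambiguous ones 1.97% to 2.10% of all reads listed. Counts were filtered (filterByExpr, minimum count 10), scaled by TMM and tested with edgeR 4.0.16 (quasi-likelihood, robust, prior count 0.125; R 4.3.3), adjusting over 15298 genes. DESeq2 1.42.0, 4 other scalings, 2 other filters, a replicate block, another prior count, glmTreat and each library left out served as alternatives. In simulated data (VPA against untreated, 15034 genes), 193 of 200 changed genes were recovered, with 20 false calls. In the real data 5037 genes were called higher and 4591 lower. With so few changed genes, the simulation cannot judge the choice of scaling. No pair of replicates agreed within sampling noise: chi-square per gene was 1.62 to 4.63. Transcript lengths (MANE) and exon overlaps came from GENCODE, and coordinates and promoter sequences from RefSeq (GRCh38.p14); 8 members had no promoter window. Members and lists were chosen with earlier results of these data known. Each role's 2 called members of largest change, all ATG8 genes and members past the study's thresholds are given by library; in other lists the 4 called genes of largest change and any other past the thresholds are named. NBR1 and ATG2B were added to these after their values were seen, as were the pairs of relatives, the shares within families, the motifs and the level of 500. 1 of the other autophagy genes is counted but not reported here by name.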

Additional observations from a re-analysis of the deposited data

How the results depend on the processing

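Most results that moved did so with the scaling, which by construction shifts all genes together: the median log2 fold change of all genes was 0.0058 with TMM, 0.071 by upper quartile, 0.14 by library totals alone and 0.28 when scaled to ribosomal protein genes. In that order of the 3 alternatives, the members called higher were 16, 22 and 34 (13 with TMM) and lower 8, 4 and 1 (16), and their median was 0.030, 0.096 and 0.24 (-0.036). Other autophagy genes were higher in 11, 15 and 30 (7) and lower in 7, 5 and 0 (13), lysosome genes higher in 23, 30 and 41 (15), and lower in 5 with library totals and 1 with ribosomal scaling (11). Nutrient sensing genes were higher in 11 and 23 (6) and lower in 11 and 5 (19) with these last settings. Members up at the study's thresholds numbered 5 with ribosomal scaling and 1 by glmTreat (2). DESeq2 called 4 other autophagy genes higher and gave a median of -0.060; the median was -0.058 with no filter on low counts and -0.0022 with a mean of at least 50; the cause was not tested. Without 1 library, members higher ranged from 12 to 15, lower from 12 to 18, up from 2 to 3, and the median from -0.047 to -0.0084. Medians and counts at the study's thresholds were the same with a prior count of 2 (-0.036 and 2), an alternative added after seeing the data for these results.

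Signs turned for the following members. With ribosomal scaling, which raised all genes, these were ULK1 0.031, ATG13 0.12, RB1CC1 0.24, PIK3R4 0.18, ATG14 0.17, AMBRA1 0.15, ATG9A 0.13, ATG2A 0.13, WIPI2 0.022, WDR45B 0.057, ATG3 0.15, ATG5 0.23, ATG7 0.099, ATG12 0.12, ATG16L1 0.068, GABARAPL2 0.12, ATG4B 0.10, ATG4D 0.0096, TAX1BP1 0.19, LAMP1 0.23 and CTSD 0.18. With library totals they were RB1CC1 0.096, PIK3R4 0.042, ATG14 0.027, AMBRA1 0.0095, ATG3 0.0069, ATG5 0.095, TAX1BP1 0.050, LAMP1 0.092 and CTSD 0.040, and with the upper quartile RB1CC1 0.030, ATG5 0.029 and LAMP1 0.026. PIK3C3 and BNIP3 turned by DESeq2 (-0.018 and -0.0069) and with no filter (-0.015 and -0.0041), and PIK3C3 with DESeq2 size factors (-0.0073). Without 1 library, PIK3C3 turned (-0.0066 without VPA replicate 2, -0.0099 without untreated replicate 2, -0.00022 without untreated replicate 3), as did CALCOCO2 (-0.028 without untreated replicate 1, -0.0080 without VPA replicate 3), ATG5 (0.0035 without VPA replicate 1, 0.0063 without untreated replicate 3), RB1CC1 (0.0065 without VPA replicate 2) and GABARAP (-0.0018 without untreated replicate 3). Over the 6 libraries left out the ranges were -0.0099 to 0.021 for PIK3C3, -0.028 to 0.088 for CALCOCO2, -0.082 to 0.0063 for ATG5, -0.10 to 0.0065 for RB1CC1 and -0.0018 to 0.055 for GABARAP.

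The libraries share replicate numbers, but the deviations of same-numbered libraries correlated at 0.14, 0.021 and 0.080, and not every library correlated best with its own number, so the numbers were not taken to pair them. A replicate block called 15 members higher and 20 lower, 2 up at the study's thresholds, with a median of -0.036. Ratios within a library do not depend on scaling, filter or test. Depth limits ATG9B and STBD1, whose untreated libraries held few reads.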

Other observations

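Genes that tell autophagy about nutrients, which are not members, had a median level of 954 normalized reads. Of 40 tested, 6 were higher (15%) and 19 lower (47.5%) by edgeR with TMM scaling, which is near the 19.4% and 49.7% of all tested genes at or above 500 reads; over all tested genes the shares were 32.9% and 30%. With ribosomal protein scaling the split was 23 and 5. AKT1S1 (PRAS40) and DEPTOR encode inhibitory partners of mTORC1, the kinase complex that holds autophagy down when nutrients are plentiful. The activity of the complex was not measured. AKT1S1 had 2610.0, 2277 and 2321 normalized reads in untreated cells and 1553, 1572 and 1530.0 in VPA-treated cells. Its change was -0.63 ± 0.05 (log2, SE). MLST8, a core subunit, was also lower (-0.53), MTOR was slightly lower (-0.15) and RPTOR (-0.04) did not pass. DEPTOR rose from 119 ± 14.9 to 201 ± 20.8 reads (mean ± SD, n = 3, log2 0.75 ± 0.11, adjusted p = 5.14e-06 by edgeR). The groups of AKT1S1, MLST8 and DEPTOR did not overlap.

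CASTOR1, the arginine sensor of the pathway, had 46.6, 56.5 and 59.8 reads in untreated cells and 122, 97.3 and 108 in VPA-treated cells (1.00 ± 0.14), which passed the thresholds of the study. RRAGD, a GTPase that recruits mTORC1 to the lysosome, rose from 391 ± 19.8 to 584 ± 66.9 reads (0.58). FOXO3, a transcription factor of autophagy genes, went from 1608 ± 21.9 to 1101 ± 20.2 reads (-0.55), and TSC2, a brake on mTORC1, from 3515 ± 140.4 to 2612 ± 80.8 (-0.43). MLST8, MTOR, RPTOR, FOXO3 and TSC2 were named after their values were seen.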
